A study of Mus musculus with 6 samples.

Results

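The inter-alpha-trypsin inhibitor genes Itih1, Itih2, Itih3, Itih4, Itih5 and Ambp were described in mouse liver tumours and in the liver beside them. They are 6 of the 19057 genes that the arrays read under a single symbol, and all 12 probes that carry one of these symbols were taken. The family was chosen by measured values, with the difference between tumour and adjacent liver already known. The differences of its members are therefore given as descriptions, with no test. Expression was read on Illumina bead arrays, on which the brightness of a probe stands for the abundance of the transcript it matches. All animals were C57BL/6J mice that had received 3e+10 particles of the vector AAV-Rian-CMV through the superficial temporal vein on the day after birth, and all were 6 months old at dissection. AAV is adeno-associated virus, and Rian is a noncoding RNA gene of an imprinted cluster. The tumour group held 3 liver tumours and the adjacent group 3 pieces of the liver beside them, 1 of each from animals 1293, 1309 and 1316 by the sample titles. A second label field gives the tumour of animal 1316 another animal number, and the titles were followed. Adjacent liver came from the injected animals themselves, each tumour was a single nodule, and uninjected liver was not analysed here.

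Inter-alpha-trypsin inhibitors are plasma proteins made mainly by hepatocytes. Ambp encodes a precursor that is cut into alpha-1-microglobulin, a lipocalin that binds haem, and bikunin, a Kunitz-type inhibitor of serine proteases. Itih1, Itih2 and Itih3 encode heavy chains, which are joined to bikunin through a chondroitin sulphate chain and can be passed on to hyaluronan, a glycan of the extracellular matrix. Itih4 encodes a heavy chain homologue that circulates without bikunin and is known as an acute phase protein in several mammals. Itih5 encodes a further heavy chain relative that is expressed mainly outside the liver. In the gene table of assembly GRCm38.p6, Itih4, Itih3 and Itih1 lie next to each other on chromosome 14, at chr14:30886476-30901986, chr14:30908572-30923787 and chr14:30929180-30943289. Itih2 and Itih5 adjoin each other on chromosome 2, at chr2:10094591-10130683 and chr2:10153536-10256529, and Ambp lies at chr4:63143275-63154172.

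The promoters of Itih2, Itih4 and Ambp are shown because the probes of these genes read higher in tumours, lower in tumours and nearly level. Each sequence is the 250 bases before the annotated start, from RefSeq on GRCm38.p6, written 5′ to 3′ on the gene's strand. The positions are chr2:10130684-10130933 on the minus strand for Itih2, chr14:30886226-30886475 on the plus strand for Itih4 and chr4:63154173-63154422 on the minus strand for Ambp. Capitals mark the motif matches.
Itih2: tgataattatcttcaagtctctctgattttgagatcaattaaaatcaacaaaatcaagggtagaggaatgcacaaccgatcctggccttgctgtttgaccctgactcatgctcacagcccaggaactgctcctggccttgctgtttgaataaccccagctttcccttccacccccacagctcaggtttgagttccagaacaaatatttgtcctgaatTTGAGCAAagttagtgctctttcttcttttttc
Itih4: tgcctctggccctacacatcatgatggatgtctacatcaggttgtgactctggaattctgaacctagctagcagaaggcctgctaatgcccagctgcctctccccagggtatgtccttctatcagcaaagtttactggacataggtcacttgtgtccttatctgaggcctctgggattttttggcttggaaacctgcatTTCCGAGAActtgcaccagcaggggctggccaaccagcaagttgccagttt
Ambp: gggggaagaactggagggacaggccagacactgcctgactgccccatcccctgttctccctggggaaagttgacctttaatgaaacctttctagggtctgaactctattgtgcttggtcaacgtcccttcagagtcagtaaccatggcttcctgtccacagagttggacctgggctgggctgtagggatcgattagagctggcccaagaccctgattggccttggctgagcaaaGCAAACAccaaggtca
All 6 genes had a promoter entry, and 5 motifs of liver regulators were searched on both strands. The capitals in Itih2 match the C/EBP motif TTGCNNAA on the opposite strand, 33 bases before the start, and 9.56% of the 32851 promoters hold that motif. The capitals in Itih4 match the STAT motif TTCNNNGAA, 51 bases before the start, which 7.02% of promoters hold. The capitals in Ambp match the FOXA motif TGTTTNC on the opposite strand, 16 bases before the start, and Itih3 has a FOXA match 17 bases before its start. The FOXA motif was in 17.8% of promoters. Itih1 had a match to the HNF1 motif GTTAAT 27 bases before its start, on the opposite strand, against 6.43% of promoters. The HNF4 motif CAAAGTNC, in 3.40% of promoters, matched 0 of the 6, and Itih5 had no match to any of the 5. These matches describe letters and show no binding.

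Median raw signals of the 6 arrays lay between 138.4 and 160.5 units, and 29.2% to 31.7% of the 45281 probes were above the background estimated for each array. Precision is limited throughout by the small number of arrays, 3 in each group. Hepatocyte markers were bright, with mean log2 signals of 15.56 for Ttr and 14.43 for Cps1 in adjacent liver, while the 1 probe of Alb was dim at 7.70 and Tat was below background on all 6 arrays. Of 6 measured cholangiocyte markers, 5 were below background on every array. In bulk tissue, fewer cells of a type and less RNA per cell cannot be told apart.

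Ambp was among the brightest transcripts of every array. Its probe ILMN_2904137 ranked between 11th and 35th of all probes, at raw intensities of 38999.1 to 50289.2 against array maxima of 47477.6 to 56349.7. The adjacent livers of 1293, 1309 and 1316 had log2 signals, after background correction and quantile normalization, of 15.52, 15.48 and 15.58, and the tumours had 15.45, 15.40 and 15.37. All 3 tumours lay below all 3 adjacent livers, by a mean difference of -0.12 (SE 0.12, n = 3 per group). The precursor of bikunin read 1.09-fold lower in tumours, a difference about as large as its standard error. Whether the closeness of this probe to the top of the array's range narrowed the difference was not tested.

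Itih1, the first heavy chain gene, was read by the probe ILMN_2749317. Its log2 signals were 14.36, 14.25 and 14.41 in the adjacent livers of 1293, 1309 and 1316 and 14.08, 14.15 and 14.03 in the tumours. The tumours were all lower, with a mean difference of -0.25 (SE 0.12) and differences within the animals of -0.28, -0.10 and -0.37. The groups did not overlap, but the tumour and adjacent liver of animal 1309 lay close together.

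Itih2, which encodes the second heavy chain, read higher in each tumour by similar amounts. Raw intensities of its probe ILMN_2673879 were 6218.8, 6154.1 and 8617 in the adjacent livers of 1293, 1309 and 1316, and 13147.7, 12379.9 and 18277.9 in the tumours. On the normalized log2 scale the adjacent livers read 12.73, 12.56 and 12.95 and the tumours 13.89, 13.49 and 14.03. Every tumour was brighter than every adjacent liver. The mean went from 12.75 ± 0.20 (SD, n = 3) to 13.80 ± 0.28 (SD, n = 3), a difference of 1.05 (SE 0.16) or 2.08-fold. Within animals 1293, 1309 and 1316 the differences were 1.16, 0.93 and 1.07. The probe's rank among all probes lay between 619th and 819th in adjacent liver and between 239th and 396th in tumours.

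Itih3, the third heavy chain gene, had probes ILMN_1231336 and ILMN_2862623, both above background on all 6 arrays. The first read 14.87, 14.49 and 14.43 in the adjacent livers of 1293, 1309 and 1316 and 14.73, 14.58 and 14.86 in the tumours, a difference of 0.13 (SE 0.15). The second read 13.22, 12.96 and 12.78 against 13.20, 13.06 and 13.41, a difference of 0.24 (SE 0.15). In both probes the groups overlapped and the direction was not shared by the animals. The tumour of 1293 read lower than its adjacent liver by 0.14 in the first probe (-0.14), while the tumour of 1316 read higher by 0.42. In the second probe the differences within 1293, 1309 and 1316 were -0.02, 0.10 and 0.63.

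**Figure D1:**
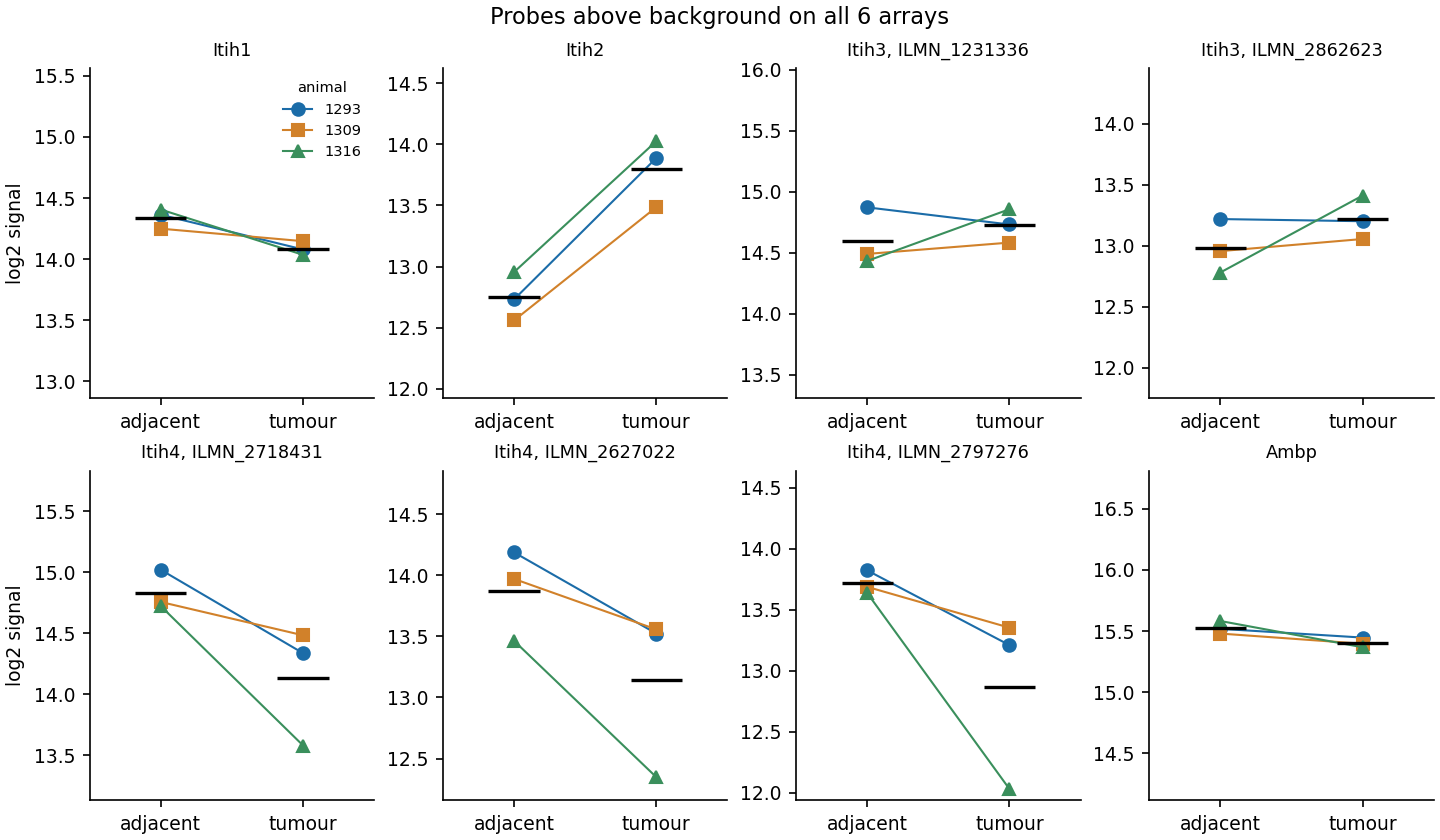
Normalized log2 intensity of the 8 member probes above background on all 6 arrays (Itih1, Itih2, Itih3, Itih4 and Ambp), 1 panel per probe with its own axis range; lines join the adjacent liver and the tumour of an animal, and black bars are group means. The lines of Itih2 climb in all 3 animals, those of the Itih4 probes descend in all 3, and those of Itih3 cross.

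Itih4, the heavy chain homologue outside the bikunin complex, read lower in the tumours with all 3 of its probes. The brightest, ILMN_2718431, gave 15.02, 14.76 and 14.72 in the adjacent livers of 1293, 1309 and 1316 and 14.34, 14.48 and 13.58 in the tumours. Its difference was -0.70 (SE 0.21), or 1.62-fold lower, and the groups did not overlap. ILMN_2627022 gave 14.19, 13.97 and 13.46 against 13.52, 13.56 and 12.35, a difference of -0.73 (SE 0.29), and here the groups overlapped, since the adjacent liver of 1316 read below the tumours of 1293 and 1309. ILMN_2797276 gave 13.82, 13.69 and 13.64 against 13.21, 13.35 and 12.03, a difference of -0.85 (SE 0.27), with the tumours all lower. The tumour of animal 1316 was the lowest array for each of the 3 probes. Differences within 1316 were -1.14, -1.12 and -1.61, while those within 1309 were -0.27, -0.41 and -0.33. The SD over the tumours was 0.48, 0.69 and 0.73 for the 3 probes, against 0.16, 0.37 and 0.10 over the adjacent livers. Without the tumour of 1316 the differences were -0.41, -0.33 and -0.44, the smallest over all alternatives tried. The 3 probes ran together across arrays, with Pearson's r of 0.953 to 0.987 over the 6 arrays, as values that share the groups and the RNA.

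Itih5 was near or below background. Its probe ILMN_2752371 was below background in the 3 adjacent livers and exceeded it in the 3 tumours. Log2 signals were 6.50, 6.70 and 6.23 in the adjacent livers of 1293, 1309 and 1316 and 7.45, 7.06 and 8.05 in the tumours, from raw intensities of 149.7, 170 and 144.7 and of 223.7, 207.9 and 378.3. Every tumour read higher than every adjacent liver, and the signal was at least 1.49-fold higher in tumours when the adjacent arrays were set to the lowest normalized signal above background (6.90 to 6.97). The measured difference was 1.05 (SE 0.22). Differences within 1293, 1309 and 1316 were 0.95, 0.37 and 1.82, so the tumour of 1309 moved least. The other 3 probes of Itih5 were below background on all 6 arrays, where values have no order and no fold is given. Their measured differences were -0.17 for ILMN_1248909, 0.30 for ILMN_2552251 and -0.12 for ILMN_2431433. The rise therefore rests on 1 of 4 probes, and the transcript part that each probe reads was not analysed here. Markers of stellate cells and fibroblasts, 14 genes of which 10 were above background on at least 3 arrays and 0 below it on every array, differed in both directions. Their summed linear signals were 12165 to 16236 in adjacent livers and 6059 to 10144 in tumours, with the bright Dcn, Reln and Ecm1 lower. Acta2 differed by 1.17 (SE 0.38), Col3a1 by 0.51 (SE 0.13) and Col1a1 by 0.41 (SE 0.18), and none of these passed. The other Acta2 probes differed by -0.21 to 0.47, the second Col3a1 probe by 0.05 and Col1a2 by -0.11. Col3a1, Col1a1 and Col1a2 were below background in all adjacent livers. The part of these markers in the Itih5 values was not tested.

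**Figure D2:**
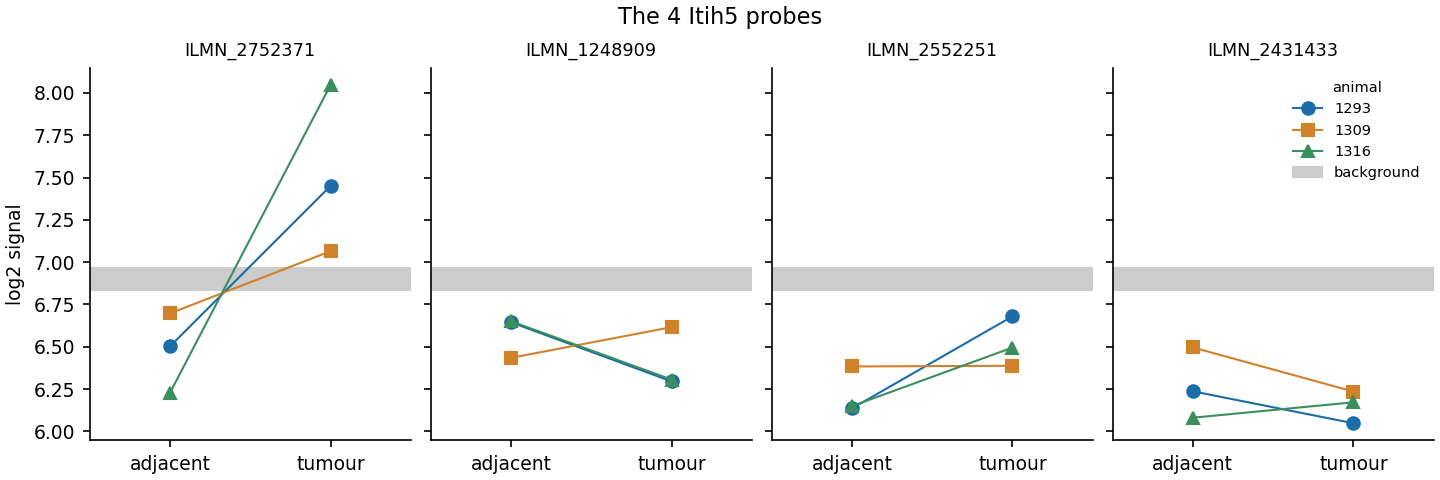
Normalized log2 intensity of the 4 Itih5 probes by array; lines join the adjacent liver and the tumour of an animal, and the band marks the lowest normalized signal above background on the arrays. The probe ILMN_2752371 is under the band in the 3 adjacent livers and over it in the 3 tumours, and the other 3 probes stay under it.

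Members of the family thus differed in direction within the same arrays. Of the 12 member probes, 8 were above background on all 6 arrays, covering 5 genes, 1 only in the tumours and 3 on no array. The limma fit over all probes, with a call at an adjusted p under 0.05, called 2 member probes higher, those of Itih2 and Itih5 (ILMN_2752371), and 0 lower, beside 3.45% of all probes called. It called 3.64% of genes higher and 1.56% lower. With the animal as a block it called 5 of the 12, adding the 3 Itih4 probes as lower, beside 5.13% of all probes. Without the tumour of 1309 it called 4, and without either array of 1293 or the adjacent liver of 1316 it called Itih2 alone. The groups did not overlap in 7 of the 12, with 3 higher and 4 lower, beside 18.9% of all probes. Since the members were chosen on this contrast, nothing is read from these counts. The median difference of the 8 bright probes was -0.19, against -0.01 over all genes.

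The spread among members was also visible within each animal. The change of Itih2 exceeded that of the brightest Itih4 probe by 1.84, 1.20 and 2.21 in animals 1293, 1309 and 1316 (mean 1.75 ± 0.51, SD, n = 3). It exceeded that of Ambp by 1.23, 1.01 and 1.29 (mean 1.18 ± 0.15, SD, n = 3), and that of Itih3 by 1.30, 0.84 and 0.65 (mean 0.93 ± 0.33, SD, n = 3). The heavy chain gene Itih1 changed nearly as Ambp did, by a mean of -0.13 ± 0.10 (SD, n = 3) relative to it. Across the 6 arrays, Itih1 and Ambp correlated at r = 0.924, whereas Itih2 correlated with the 3 Itih4 probes at -0.785 to -0.863. These correlations are descriptions over arrays that fall into groups. Of the 9 member probes above background on at least 3 arrays, animal 1316 had the largest absolute difference in 8 and animal 1309 the smallest in 7. Over all 14026 such probes of the arrays, 1316 had the largest in 56.2% and 1309 the smallest in 53.1%.

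**Figure D3:**
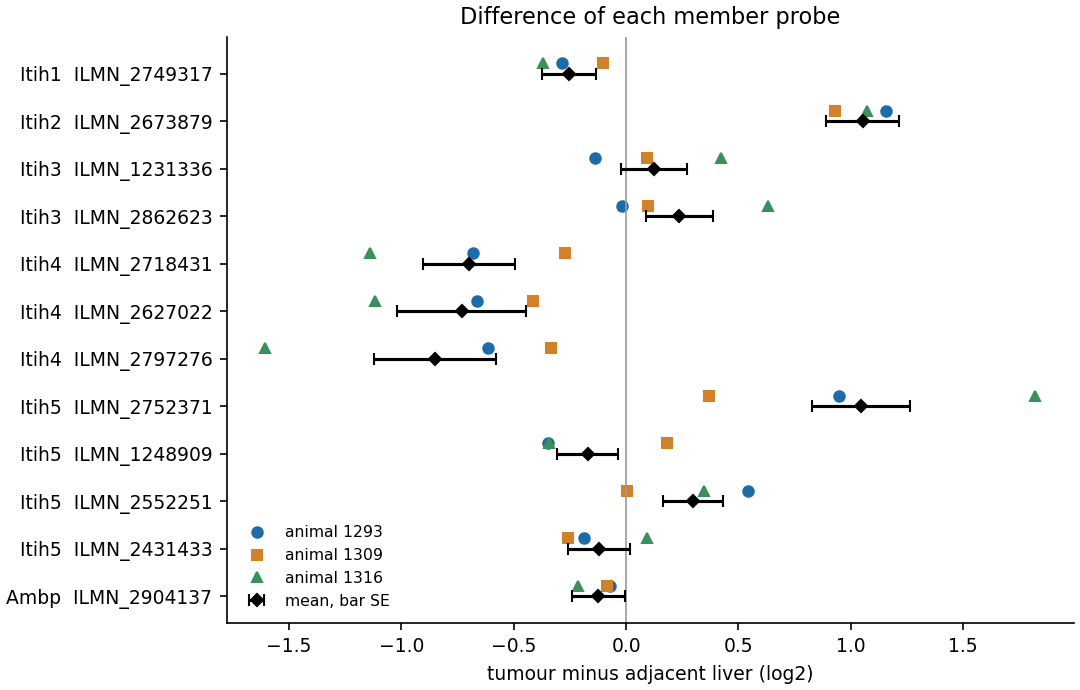
Difference between tumour and adjacent liver on the log2 scale for each of the 12 member probes, with the standard error as bars and the 3 animals as points. Itih2 sits at 1.05 with the animals close together, the 3 Itih4 probes lie between -0.85 and -0.70 with the animals spread, and Ambp is near 0 at -0.12.

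The genes whose levels ran most like each member's were taken by Pearson's r over the 6 arrays among 8297 other genes above background on at least 3 arrays. For Itih2 these were Pigh, Ppp3cc and H4c9, at 0.995 to 0.996, and their own differences were 0.99, 0.31 and 0.77. For the brightest Itih4 probe they were Nxpe2, Cyp2c54 and Phlda1, at 0.994 to 0.995, with differences of -1.42, -2.18 and -1.27. Itih1 ran with Mb21d2, Erich5 and Naprt at 0.994 to 0.996, and Ambp with Map3k3, Tjp1 and Fhod1 at 0.996 to 0.999. Itih3 ran with Lars2, Errfi1 and Tmem106c at 0.977 to 0.993. Over 6 arrays such values are common, since 778 genes passed 0.9 with Itih2, 572 with Itih4, 464 with Itih1, 271 with Ambp and 92 with Itih3.

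The genes that act with the family at hyaluronan were measured for 20 of 22 listed. By limma, 0 passed the adjusted threshold in either direction, 5 had an unadjusted p under 0.05, beside 19.1% of all genes, and the median difference was -0.09. The hyaluronan receptor gene Cd44 differed by 0.31 (SE 0.16), and Habp2, a hyaluronan-binding protease gene, by -0.18 (SE 0.15). The other Cd44 probes differed by -0.34 to 0.30. With the animal as a block, which called 4.56% of all genes higher and 3.11% lower, 1 gene of the list passed, Lyve1, a hyaluronan receptor gene of endothelium, with 0.59 (SE 0.13) and an adjusted p of 0.0217 by limma. The synthase genes Has1 and Has2 were among 9 genes of the list below background on all arrays. Of 19 measured genes that build the chondroitin sulphate chain, 0 passed, 2 had an unadjusted p under 0.05, 0 passed with the block, and the median was 0.06. That median includes 11 genes below background on every array. The 8 genes above background on at least 3 arrays differed by -0.43 (Chst15), -0.35 (Xylt2), -0.27 (B4galt7), -0.23 (Fam20b), -0.22 (Chst13), -0.21 (B3gat3), 0.15 (B3galt6) and 0.33 (Pxylp1).

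Relatives of bikunin and of the heavy chains were read next. Among 14 measured genes with another Kunitz domain, 2 rose, 1 fell and the median was 0.11. Of the 14, 8 were below background on every array and count in that median. App, the amyloid precursor gene, rose by 1.91 (SE 0.21, adjusted p = 0.000236 by limma), and its relative Aplp2 by 0.73 (SE 0.16, adjusted p = 0.0302 by limma). The second probe of Aplp2 differed by -0.06, and the other App probes by -0.02 to 2.08. Tfpi, the tissue factor pathway inhibitor gene, fell by 1.17 (SE 0.26, adjusted p = 0.0281 by limma) in 1 probe, while its other probes differed by 0.03 to 0.17. Of 4 measured relatives of the heavy chains that share the VIT domain, 0 passed by limma with or without the block, 2 had an unadjusted p under 0.05, and the median was 0.01. Among these 4, 2 were below background on all arrays.

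Serine proteases, the class that bikunin inhibits, were measured for 17 of 18 listed genes, with a median of -0.14. Of the 17, 9 were below background on every array. Klkb1, the plasma prekallikrein gene, fell by 1.57 (SE 0.38, adjusted p = 0.0432 by limma). Plg, the plasminogen gene, differed by -0.30 (SE 0.13) and did not pass. The blocked fit called 4, 1 higher and 3 lower, where it called 4.56% of all genes higher and 3.11% lower. These were Cela1 at -0.80, Prtn3 at -0.85 and, higher, Plat at 0.50 beside Klkb1. Prtn3 was above background on 2 adjacent arrays and 0 tumour arrays, and Plat on 0 adjacent and 2 tumour arrays. The second Cela1 probe differed by -0.07, and the other Plat probes by -0.13 to 0.07. Among 12 measured lipocalins, the family of alpha-1-microglobulin, Rbp4 fell by 0.96 (SE 0.20, adjusted p = 0.0241 by limma), 0 rose, and the median was -0.19. With the block 3 lipocalins passed, all lower, with Apom at -1.40 and Orm1 at -0.68 beside Rbp4.

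Itih4 was set beside 21 measured acute phase genes, of which 1 passed in the higher direction, 0 in the lower, and the median was -0.40. The gene that passed was Il1rn, which encodes a blocker of the interleukin-1 receptor, at least 1.30-fold higher (adjusted p = 0.0194 by limma), below background in all adjacent livers. Its other probes differed by -0.08 to 0.52, and the mean over its 4 probes by 0.36. With the animal as a block 8 passed, 2 higher and 6 lower, beside 4.56% of all genes higher and 3.11% lower. Among the 8 were Cp at -0.72 (SE 0.14, adjusted p = 0.0114 by limma) and Saa1 at -1.83 (SE 0.37, adjusted p = 0.0143 by limma). Saa1, a strongly inducible serum amyloid gene, read 14.49, 14.64 and 10.11 in the adjacent livers of 1293, 1309 and 1316 and 12.39, 14.33 and 7.03 in the tumours. The adjacent liver and the tumour of 1316 were its lowest arrays in their groups, as they were for the Itih4 probes. Haptoglobin, read by Hp, differed by -0.13 (SE 0.16), and the other Hp probes by -0.37 to -0.29.

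Of 9 hepatocyte markers 1 rose, 1 fell and the median difference was -0.24. Cps1, the carbamoyl phosphate synthetase gene, rose by 0.59 (SE 0.14, adjusted p = 0.0436 by limma). Alb fell by 0.84 (SE 0.15, adjusted p = 0.00835 by limma). An unadjusted p under 0.05 was seen in 5 markers, 2 higher and 3 lower. Besides Cps1 and Alb, these were Cyp2e1 at -1.11 (SE 0.49), Asgr1 at -0.68 (SE 0.19) and Tat, below background on all arrays, at 0.44 (SE 0.15). The 1 Alb probe was close to background, at a mean of 7.70 in adjacent livers and 6.87 in tumours. Only 2 of the tumours were above background, so the fall describes a dim probe. Of 22 measured hepatocyte genes for other secreted proteins, 0 rose, 4 fell and the median was -0.18. Several of them were about as bright as Ambp, such as Ttr and Apoc3 at means of 15.56 and 15.69 in adjacent livers. Whether closeness to the top of the array's range narrowed their differences was not tested. Fetub, a fetuin gene, fell by 1.49 (SE 0.30, adjusted p = 0.0190 by limma). Hrg, the histidine-rich glycoprotein gene, fell by 1.59 (SE 0.40, adjusted p = 0.0493 by limma), and Alb and Rbp4 were the others. Of 15 measured regulators of hepatocyte genes and of interleukin-6 signalling, 0 passed and the median was -0.14. An unadjusted p under 0.05 was seen in 6, 1 higher and 5 lower. With the animal as a block Il6ra, the interleukin-6 receptor gene, passed at -1.24 (SE 0.24, adjusted p = 0.0125 by limma). Cebpb, a C/EBP factor gene, differed by 0.26 (SE 0.13), Stat3 by -0.03 (SE 0.17) and Foxa2 by 0.12 (SE 0.16). The second Foxa2 probe differed by -0.19. Their relatives Foxa1, Foxa3 and Cebpa differed by -0.98 (SE 0.32), -0.28 (SE 0.16) and -0.33 (SE 0.14), and Cebpd by 0.43 (SE 0.15). Hnf4a differed by -0.24 (SE 0.13). Among markers of other cells, 4 of 14 stellate and fibroblast markers fell, with differences of -1.25 for Reln, -1.39 for Ecm1, -0.93 for Dcn and -0.63 for Lum. The other Reln probes differed by -0.10 to 0.22. The blocked fit called 5 of the 14, these 4 and, in the higher direction, Acta2, an actin gene of activated stellate cells, at 1.17 (SE 0.24, adjusted p = 0.0163 by limma). The other Acta2 probes differed by -0.21 to 0.47. Over all lists 14 of 188 genes passed. App and Alb did so in 14 of 14 alternatives and the 12 others in 4 to 9, and the number that passed was 34 without the tumour of 1309 and 4 without its adjacent liver. Of 11 endothelial and 10 Kupffer cell markers 0 passed by limma, 4 of each had an unadjusted p under 0.05, and 1 and 0 passed with the block. The endothelial median was -0.30, with 1 of the 4 higher and 3 lower. Mean differences of the Kupffer cell markers were all negative, from -1.46 to -0.09, with a median of -0.48. Without the tumour of 1309, 3 Kupffer cell markers passed. Clec4f, the lowest of them in the main fit, differed by -1.03, 0.13 and -3.49 within 1293, 1309 and 1316.

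**Figure D4:**
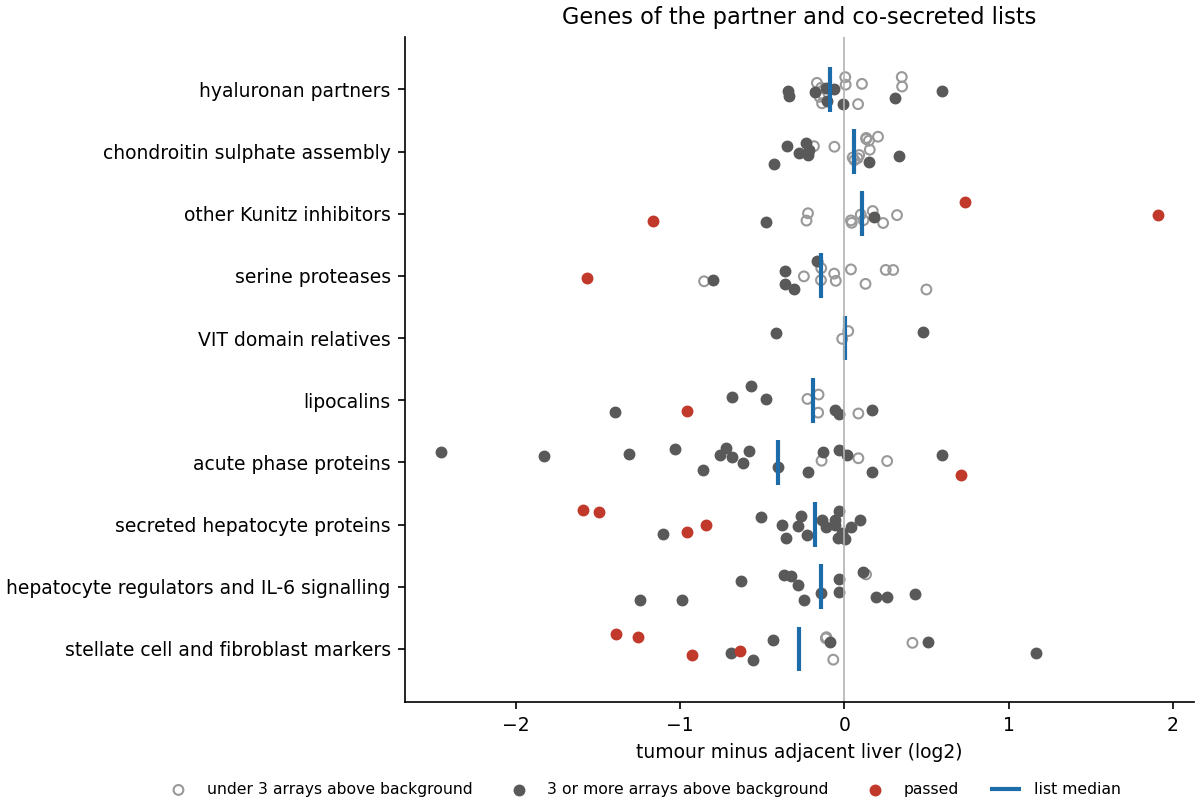
Difference between tumour and adjacent liver on the log2 scale for genes of the lists of partners, relatives and co-secreted proteins; each point is a gene, red points passed the adjusted threshold and bars mark the list medians. Medians run from -0.40 for acute phase proteins to 0.11 for other Kunitz inhibitors, and they include genes below background on every array.

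The genes around the member loci were read to see how the neighbourhood behaved. Of the 5 protein-coding genes on each side of the 3 loci, 28 of 30 were measured, 0 rose, 2 fell and the median difference was -0.08. Kin, next to Itih2, differed by -0.47 (SE 0.14), Atp5c1 beyond it by 0.30 (SE 0.13), and Sfmbt2, next to Itih5, was below background on all arrays. Neither Kin nor Atp5c1 passed the threshold. Celf2, an RNA-binding protein gene, is the fifth gene from Itih2, 2698 kb away. It fell by 0.81 (SE 0.19, adjusted p = 0.0395 by limma), and the mean over its 5 probes differed by -0.37. Rgs3, a regulator of G-protein signalling 440 kb from Ambp, fell by 0.84 (SE 0.17, adjusted p = 0.0179 by limma), and the mean over its 9 probes differed by -0.13. Zfp618 and Kif12, the genes next to Ambp, were below background on all arrays. In the blocked fit 7 neighbours passed, all lower, beside 3.11% of all genes called lower. Among them were Mustn1 and Stimate, the nearest genes to Itih4, at -0.77 (SE 0.18, adjusted p = 0.0285 by limma) and -0.93 (SE 0.20, adjusted p = 0.0192 by limma). Orm1, also one of the 7, is counted above among the lipocalins and the acute phase genes. Nek4, next to Itih1, was above background on 2 tumour arrays only.

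**Figure D5:**
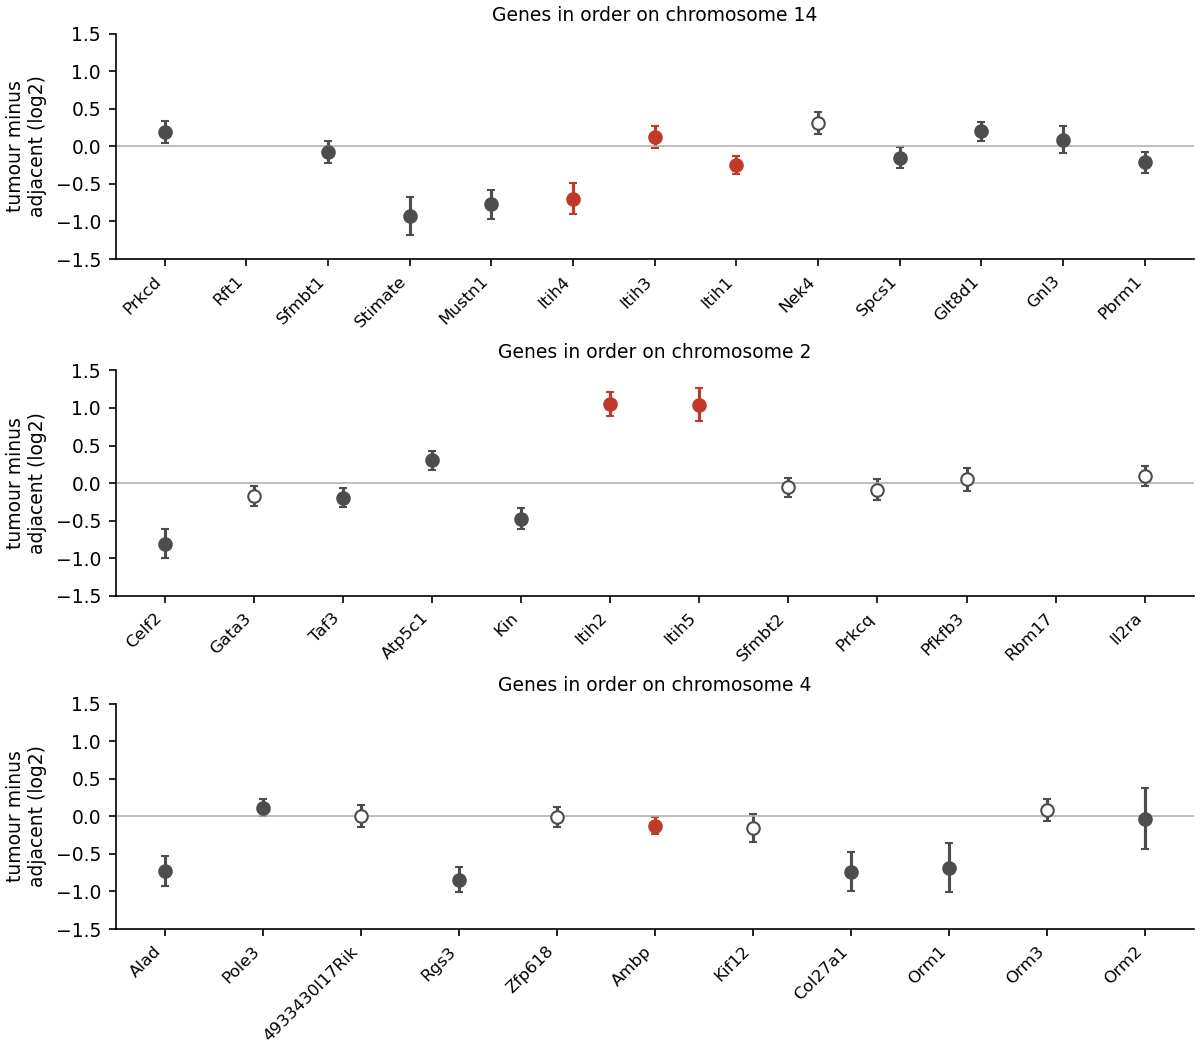
Difference between tumour and adjacent liver on the log2 scale for the members (red) and the 5 genes on each side of the 3 loci, in gene order, with standard errors as bars and open symbols for probes above background on fewer than 3 arrays. Itih2 and Itih5 stand at 1.05 each between neighbours that read from -0.81 to 0.30.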

How the data were processed

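RNA from 3 liver tumours and the liver beside each was hybridised to 1-colour, biotin-labelled Illumina arrays, per the labels. The deposited table of linear intensity values was used as the main source; its values show no background subtraction and no normalization between arrays. The authors' second table holds log2 values that match quantile-normalized intensities without background subtraction (largest difference 0.00504), with array medians of 7.26 and no centring per gene. GenomeStudio is listed in the submitters' processing notes, without a version.

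After normexp correction (offset 50), quantile normalization and log2 transformation, a linear model (lmFit, eBayes; limma 3.58.1, R 4.3.3) gave the tumour minus adjacent difference, with p-values adjusted by Benjamini-Hochberg over all 45281 probes, with a threshold of 0.05. Background on an array was set 3 SDs above the mode of its log2 signals, the SD being estimated from the lower flank. Probe symbols came from the platform annotation: 34885 probes have 1 symbol, 18 several, and 10378 are not listed. Outside the family, a gene was read from its brightest probe. The test was checked on simulated data.

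The members and the 15 lists (188 of 208 genes measured) were chosen with earlier results of these data known. Named genes were all member probes, up to 4 called genes of a list in the direction of most calls and up to 2 in the other, called neighbours among 5 genes on each side of a locus, and the 3 genes most like each bright member. Cd44, Habp2, Col1a1, Col3a1, Plg, Hp, Saa1, Cebpb, Stat3, Foxa2, Kin, Atp5c1 and Nek4 were named after their values were seen. So were Foxa1, Foxa3, Cebpa, Cebpd, Hnf4a, Cyp2e1, Asgr1, Tat, Clec4f, Apoc3 and the genes passing only with the animal as a block.

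The animal number of the titles pairs the arrays. Deviations from the group means correlated at 0.41, 0.25 and 0.09 within animals 1293, 1309 and 1316 over 14026 probes, and at -0.27 to 0.03 between animals. The main fit has no block, and the blocked fit (statmod 1.5.0 for the random form) is an alternative, beside other background corrections, scalings, filters and leaving out each array.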

Additional observations from a re-analysis of the deposited data

How the results depend on the processing

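Of 153 alternative values of the member probes, 150 stayed within the spread of the arrays. The 3 others were ILMN_2752371 and ILMN_2552251 of Itih5 at 1.44 and 0.51 with an offset of 16, and Ambp at -0.22 with median scaling; the cause was not tested. Itih2 was called in all 13 alternatives. Itih5 lost its call without background correction, on the authors' values, and without the adjacent liver of 1293, the tumour of 1293 or the adjacent liver of 1316.

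With the animal as a replicate block the called member probes were 5 in place of 2, list genes 28 in place of 14 and neighbours 7 in place of 2. Member calls were 1 without background correction and 1 on the authors' values. All probes called, 1560, became 787 with an offset of 16, 1019 without background correction and 1012 on the authors' values. List genes became 3 with an offset of 16, 4 without background correction, 9 with median scaling, 4 on the authors' values, 8 after a filter on dim probes and 2 on the mean of a gene's probes. Neighbours became 1, 0, 0, 0, 1 and 0 in that order.

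Leaving out 1 array gave 670 (without the tumour of 1293) to 2510 probes (without the tumour of 1309), 1 to 4 member probes, 4 to 34 list genes and 0 to 5 neighbours; the highest of each came without the tumour of 1309. The share of calls that were higher was 66.7%, against 86.0% with an offset of 16, 83.4% with median scaling, 56.1% with the animal as a block and 56.0% without the tumour of 1309.

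Of 224 alternative values of the named list genes and neighbours, 107 kept their call, 117 lost it and 0 reversed. App and Alb kept it in 14 of 14 alternatives, Celf2 in 3, Aplp2 and Hrg in 4. A slide block was not run because the files name no slides. Itih5 is limited by signal over background. Ambp lay close to the top of the array's range, and whether this narrowed its difference was not tested.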
